A study of Mus musculus with 6 samples.

Results

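The initiation and elongation factors of cytosolic translation, with their close regulators, are encoded here by 44 genes, whose mRNA levels were compared in mouse oligodendrocyte progenitor cells (OPCs) with and without a Cre that targets floxed Prrc2b. The genes were taken by symbol from a list of factor names, by a rule that uses no measured value, although the list was drawn up with earlier results of these data known. All 44 were among the 24421 genes listed and among the 15906 that passed the filter on low counts. RNA-seq was available for 6 libraries. The knockout group held 3 libraries of the genotype Prrc2bf/f; Olig2-Cre, and the control group held 3 of the genotype Prrc2bf/f, so both carried the floxed alleles and differed by the Cre. Cells came from the cortex of C57BL/6J pups at postnatal day 4, were panned on GalC and O4 antibodies, and were grown in a medium with PDGF-AA, bFGF, CNTF, NT3, insulin and forskolin. The Cre acts in cells that express Olig2, and no library carried it without the floxed alleles, so an effect of the Cre cannot be told apart from one of Prrc2b loss. The labels do not say whether replicates were separate animals or cultures. X- and Y-linked transcripts, given with eIF2, differed among the 3 libraries of each genotype, so these were not repeats of 1 pool of cells. The p-values measure the spread between these libraries. Where the replicate number enters as a block, they measure the spread of the differences between same-numbered libraries instead. The series' design text speaks of brain tissue, whereas the sample labels describe cultured OPCs.

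Translation begins when eIF2 brings the initiator tRNA to the small ribosomal subunit, which eIF3, eIF1, eIF1A and eIF5 hold in a form able to scan. The eIF4 proteins bind the cap and unwind the leader of the mRNA, eIF2B recharges eIF2 with GTP, and eIF5B joins the large subunit, after which eEF1 and eEF2 drive each step of elongation. Phosphorylation of eIF2 blocks eIF2B and lowers initiation, and mutations in the human genes for eIF2B cause vanishing white matter disease, in which glial cells fail. In human cell lines PRRC2 proteins have been found on initiation complexes and promote scanning past upstream start codons. The libraries measure mRNA levels, not protein, phosphorylation or translation.

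Gene counts per library ranged from 26015604 to 28114968. Prrc2b (chromosome 2, 32151082 to 32234537 of GRCm38, plus strand) had 649, 824 and 758 CPM (counts scaled to a common library total) in knockout libraries, against 933, 1111 and 926 CPM in control libraries, so the groups did not overlap. Its log2 fold change was -0.41 (SE 0.13, adjusted p = 1.00 in edgeR's quasi-likelihood test with Benjamini-Hochberg adjustment), while a fit with the replicate number as a block gave -0.41 again (SE 0.06, adjusted p = 0.00688 in edgeR). Its paralogs did not pass: with the block Prrc2a was at -0.14 (SE 0.05, adjusted p = 0.148 in edgeR), or 0.00 after correction for GC content, and Prrc2c at 0.01 (SE 0.05, adjusted p = 0.915 in edgeR). The counts cover the whole gene, and which exons the Cre removes is not given in the labels. Replicates are numbered 1, 2 and 3 in each genotype, and same-numbered libraries deviated together from their group means (r = 0.778, 0.751 and 0.726 across genes), so blocked values are given beside the others. The labels do not say what a number marks, so the block rests on this correlation in the same data. The summed level of 8 OPC markers was 2273 to 4761 CPM in knockout and 2297 to 4022 CPM in control libraries. Ptprz1 made up the largest part of that sum in every library. The sum of 11 neuronal markers was 3214 to 4583 CPM in knockout and 3613 to 4924 CPM in control libraries. The libraries thus also held RNA of neuronal genes. Sums over different lists depend on the genes listed and do not measure shares of cells. Of 7 endothelial markers 6 rose with the block, and their sum was 35.7 to 244 CPM in knockout and 14.8 to 76.7 CPM in control libraries. Of 7 astrocyte markers 4 rose, with sums of 1602 to 2892 CPM in knockout and 1366 to 2444 CPM in control libraries. Of 6 ependymal and choroid plexus markers 4 rose, with sums of 808 to 2705 CPM in knockout and 349 to 1843 CPM in control libraries. Of the 11 neuronal markers 2 fell and of the 8 OPC markers 0 passed. All these calls came from the fit with the block, which called 1.57% of all genes higher and 2.23% lower. Without the block no marker on these lists passed. Nearest to the threshold among the OPC markers was Olig2, at 342, 94.5 and 115 CPM in knockout and 360, 180 and 166 CPM in control libraries. Olig2 was lower in each same-numbered pair (blocked log2 fold change -0.50, SE 0.12, adjusted p = 0.0533 in edgeR). Of the 8 OPC markers 1 was lower and 2 were higher in all 3 pairs. The part of these marker differences in the results that follow was not tested. In such bulk libraries fewer cells of a type and less RNA per cell cannot be told apart.

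None of the 44 translation factors passed the edgeR test, with or without the replicate block. Without the block the test called 0% of all 15906 genes, with 274 genes (1.72%) and 0 members at an unadjusted p under 0.05. With the block it called 3.8% of all genes (1.57% higher and 2.23% lower in knockout libraries), and 0 of the 44 members. That split of 250 higher and 354 lower genes depended on scaling, and was 271 and 231 with library totals and 289 and 247 with upper quartiles. At an unadjusted p under 0.05 the blocked test had 7 members, against 18.2% of all genes. Summed over the 44 genes, the level was 16453 to 17726 CPM in knockout and 16219 to 18500 CPM in control libraries. That is 1.62% to 1.85% of the TMM-scaled library total. The groups overlapped for this sum, and for every complex taken by itself.

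The blocked fit left little room for large changes in these mRNAs. The 95% interval of the blocked log2 fold change lay within 0.5 of zero for all 44 members and within 0.3 for 39 of them. Fold changes with the block ran from -0.23 for Eif3f to 0.13 for Eif1. The median over the members was -0.06 in both fits, beside 0.00 over all tested genes, and 28 of 44 members had a fold change below 0 without the block, against 49.5% of all genes. Lower values in all 3 same-numbered pairs were seen for 16 members, against 20.9% of all genes, and higher values in all 3 for 3 members, against 19.6%. The median difference within a pair was -0.05, -0.09 and 0.00 for the pairs numbered 1, 2 and 3. These genes are abundant, with a median of 150 CPM against 24.0 CPM over all tested genes, and 42 of 44 lay above that overall median. Without the block the intervals were wider, within 0.5 of zero for 41 members and within 1 for 43.

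**Figure D1:**
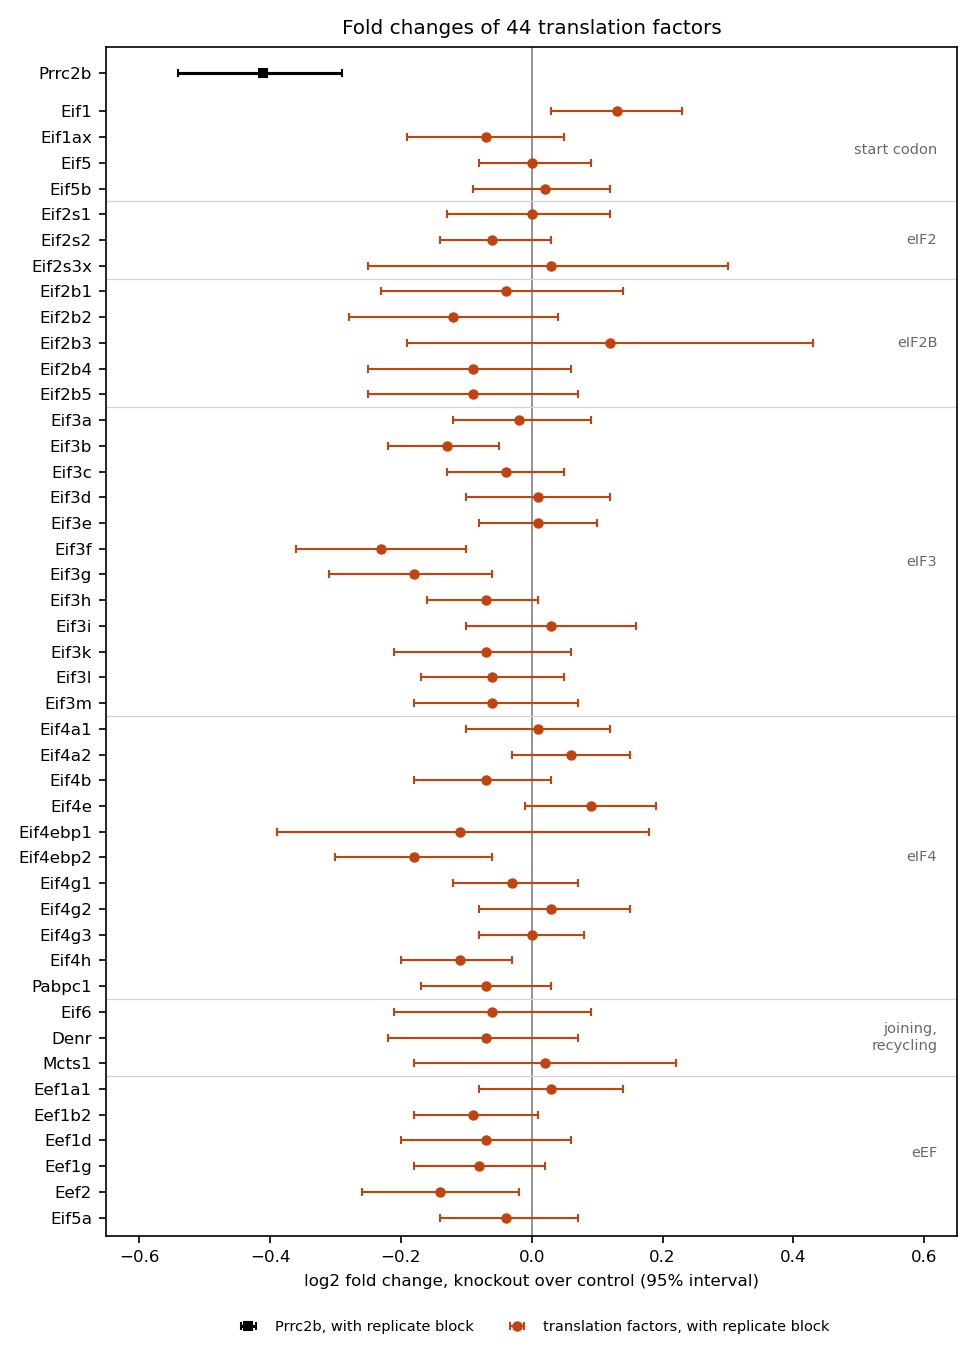
Log2 fold changes (knockout over control) of 44 translation factors and of Prrc2b from the edgeR fit with the replicate block, with 95% intervals. Points are grouped by complex; all members sit between -0.23 and 0.13, closer to 0 than Prrc2b at -0.41.

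Among the factors that keep the small subunit scanning and choose the start codon, Eif1 and Eif1ax gave opposite values and neither passed. Eif1, the gatekeeper against wrong start codons, had 469, 417 and 378 CPM in knockout libraries, against 405, 408 and 340 CPM in control libraries. Each knockout library was above its same-numbered control, but the groups overlapped, and the blocked log2 fold change was 0.13 (SE 0.04, adjusted p = 0.139 in edgeR). It is the highest value among the members. Eif1ax, the X-linked gene of eIF1A, averaged 90.4 ± 5.65 CPM in knockout and 95.1 ± 8.70 CPM in control libraries (SD, n = 3 each). Eif5, the GTPase activator of eIF2 that acts when the start codon is found, averaged 393 ± 33.7 CPM in knockout and 391 ± 23.0 CPM in control libraries. Eif5b, which joins the subunits, averaged 135 ± 8.66 and 134 ± 12.4 CPM in knockout and control libraries.

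None of the eIF2 subunits passed the test, and the gamma subunit varied with X- and Y-linked transcripts. Eif2s1, the alpha subunit that stress kinases phosphorylate, averaged 69.4 ± 6.91 CPM in knockout and 69.4 ± 6.49 CPM in control libraries (SD, n = 3 each), with a blocked log2 fold change of 0.00 (SE 0.06, 95% interval -0.13 to 0.12). Eif2s2, the beta subunit, had 246, 206 and 160 CPM in knockout libraries, against 258, 222 and 160 CPM in control libraries. Its values were nearly alike within each number and lowest in both libraries numbered 3. Eif2s3x, the gamma subunit gene on the X chromosome, had 155, 178 and 120 CPM in knockout libraries, against 141, 136 and 165 CPM in control libraries, with a blocked log2 fold change of 0.03 (SE 0.12).

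Its Y-linked partner Eif2s3y encodes a nearly identical protein and is expressed in male cells. It stood at 0.109, 11.1 and 81.7 CPM in knockout libraries, against 62.5, 88.8 and 0.0354 CPM in control libraries. The 3 libraries with the least Eif2s3y (knockout 1 and 2 and control 3) were also the 3 with the most Eif2s3x. Xist, the transcript of the inactive X chromosome, was at 2720, 2559 and 2.53 CPM in knockout libraries, against 937, 2.33 and 2791 CPM in control libraries. Control 1 and knockout 2 carried Xist together with Y-linked transcripts, so each was made from cells of both sexes. The X- and Y-linked genes together summed to 155, 189 and 202 CPM in knockout libraries and to 203, 225 and 165 CPM in control libraries. Within the pairs numbered 1, 2 and 3, Eif2s3x differed by 0.14, 0.39 and -0.45 on the log2 scale, and its blocked interval, -0.25 to 0.30, was wider than that of any member except Eif2b3 and Eif4ebp1. The share of the sexes differed between same-numbered libraries, and its part in other results was not tested.

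**Figure D2:**
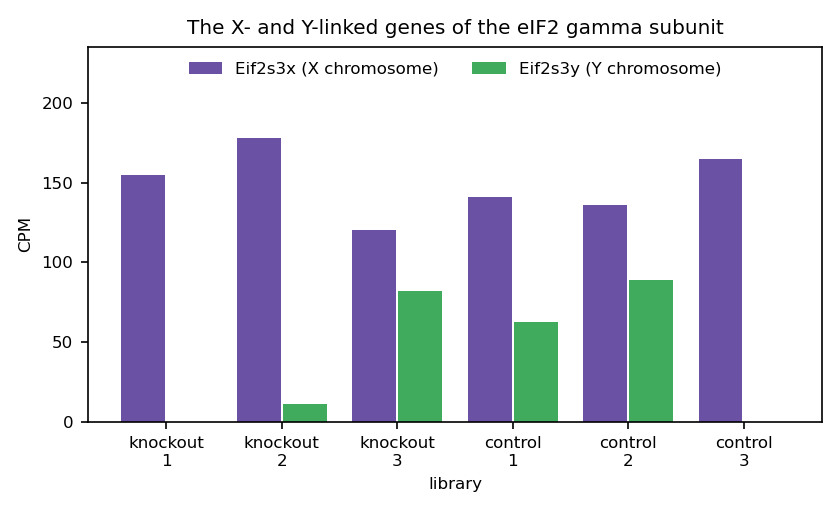
CPM of Eif2s3x (X chromosome) and Eif2s3y (Y chromosome) in each library. Eif2s3y is near 0 in knockout 1 and control 3 and low in knockout 2, the libraries in which Eif2s3x is highest (155 and 178 CPM in knockout 1 and 2, and 165 CPM in control 3).

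The 5 subunits of eIF2B, whose human genes are those of vanishing white matter disease, gave 0 calls, and their summed levels overlapped between the groups. The sum was 183, 177 and 170 CPM in knockout libraries, against 199, 184 and 175 CPM in control libraries. Eif2b5, the catalytic subunit and the highest of the 5 in CPM, had 50.3, 51.3 and 49.8 CPM in knockout libraries, against 56.1, 58.1 and 47.5 CPM in control libraries. The groups overlapped through control 3, and the blocked log2 fold change was -0.09 (SE 0.07, adjusted p = 0.567 in edgeR). Blocked fold changes of the others were -0.04 for Eif2b1, -0.12 for Eif2b2, 0.12 for Eif2b3 and -0.09 for Eif2b4. Eif2b3 was the least abundant member, at 13.3 ± 1.39 CPM in knockout and 12.3 ± 2.03 CPM in control libraries (SD, n = 3 each).

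Of the 12 eIF3 subunits, Eif3f came nearest to the threshold. It was the single member whose knockout libraries all lay on one side of the control libraries, which 6.34% of all genes do (3.6% with the knockout lower and 2.75% with it higher, where the members had 0). Eif3f had 140, 161 and 168 CPM in knockout libraries, against 178, 199 and 174 CPM in control libraries. The gap between the groups was small, since knockout 3 and control 3 differed by -0.05 on the log2 scale while the pairs numbered 1 and 2 differed by -0.34 and -0.31. Its blocked log2 fold change was -0.23 (SE 0.06, adjusted p = 0.0594 in edgeR), and -0.23 (SE 0.11, adjusted p = 1.00 in edgeR) without the block. With the block it passed in 3 alternatives, at adjusted p = 0.0294 with DESeq2, edgeR 0.0124 with no filter on low counts, and edgeR 0.0375 without the libraries numbered 3. Over the alternatives with the block its adjusted p ranged from 0.0124 to 0.193. Eif3f lies on chromosome 7 from 108934417 to 108942951 of GRCm38, plus strand (ENSMUSG00000031029.6), and encodes one of the MPN-domain subunits of eIF3.

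The remaining eIF3 subunits overlapped between the groups. Eif3b, an RNA-binding core subunit, had 210, 165 and 179 CPM in knockout libraries, against 236, 186 and 187 CPM in control libraries, with a blocked log2 fold change of -0.13 (SE 0.04, adjusted p = 0.102 in edgeR). Eif3g, of the module that eIF3b also forms, had 77.5, 67.0 and 61.6 CPM in knockout libraries, against 84.7, 79.1 and 69.7 CPM in control libraries (blocked log2 fold change -0.18, SE 0.06, adjusted p = 0.119 in edgeR). Both were lower within each pair. Eif3a, the largest scaffold subunit and the highest in CPM, had 555, 530 and 491 CPM in knockout libraries, against 563, 572 and 466 CPM in control libraries, which overlapped fully. Eif3d, which can bind caps itself, and Eif3e, which eIF3d contacts, had blocked fold changes of 0.01 each. The others, Eif3c, Eif3h, Eif3i, Eif3k, Eif3l and Eif3m, lay between -0.07 and 0.03. In all, 9 of the 12 subunits had a fold change below 0 and 7 were lower in all 3 pairs. The same sign in several subunits is not independent evidence, as all come from the same libraries. Eif3j1 and Eif3j2, the near-identical copies of the loosely bound subunit eIF3j, were listed with a count of 0 in every library and could not be tested.

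Eif3f is among the mRNAs known in mammals to start with a terminal oligopyrimidine (TOP) tract, through which mTORC1 and LARP1 control their translation. The promoter table of RefSeq (GRCm38.p6) held 34 of the 44 members. It did not give Eif2b3, Eif3e, Eif3h, Eif3i, Eif4ebp1, Eif4g2, Pabpc1, Eif6, Eef1d or Eef1g. The bases around the annotated starts of Eif3f, of the elongation factors Eef1a1 and Eef2, which are classical TOP mRNAs, and of Eif2s3x are shown to let their starts be compared. Each line runs from 15 bases before the start to the 15th base of the transcript, 5′ to 3′ on the gene's strand, and capitals mark runs of 8 or more C or T bases. The single capital of Eef2 begins a run that lies almost wholly past the end of its line.
Eif3f (chr7:108934400-108934429, plus strand): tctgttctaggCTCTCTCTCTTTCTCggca
Eef1a1 (chr9:78481710-78481739, minus strand): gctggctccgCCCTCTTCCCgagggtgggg
Eef2 (chr10:81176616-81176645, plus strand): tataaaaggccgggcgttgacgtcagcggT
Eif2s3x (chrX:94212637-94212666, minus strand): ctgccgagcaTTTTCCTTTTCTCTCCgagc
A run of at least 8 C or T bases on the transcript strand within 20 bases of the annotated start was found for 8 of the 34 members, in 8 of their 42 entries, and in 16% of all 32851 entries of the table. Eif3f has one of 15 bases and Eif2s3x one of 16 across the start. Annotated starts need not be the starts used in these cells, and a run of this kind is a description of the letters, not of control. Of 10 members known as TOP mRNAs (Eef1a1, Eef1b2, Eef1d, Eef1g, Eef2, Eif3e, Eif3f, Eif3h, Eif4b and Pabpc1, a list written after the values were seen), 0 passed the test, 8 had a fold change below 0, and the median blocked log2 fold change was -0.07, beside -0.04 for the other 34 members. Only 5 of the 10 had a promoter entry, and 2 of these 5 had a counted run, Eif3f and Eef1a1. A run was counted only if at least 8 of its bases fell within the 20 bases searched on either side. That of Eef2 had 6 bases there and was not counted. Among the members not on that list, 6 of the 29 with an entry had a run.

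The eIF4 group binds the cap and prepares the mRNA. Eif4g2 had the highest level, and it encodes DAP5, a relative of eIF4G that does not bind eIF4E. It had 2135, 2297 and 2038 CPM in knockout libraries, against 2104, 2317 and 1907 CPM in control libraries. These values overlapped, with a blocked log2 fold change of 0.03 (SE 0.05, 95% interval -0.08 to 0.15). The scaffold genes Eif4g1 and Eif4g3 averaged 531 ± 43.3 and 312 ± 18.7 CPM in knockout libraries and 541 ± 52.0 and 312 ± 20.2 CPM in control libraries (SD, n = 3 each). The helicase gene Eif4a1 had 702, 720 and 624 CPM in knockout libraries, against 684, 767 and 587 CPM in control libraries. Its paralog Eif4a2 averaged 465 ± 44.3 CPM in knockout and 447 ± 60.4 CPM in control libraries. Their helper genes Eif4b and Eif4h had blocked fold changes of -0.07 and -0.11. Eif4e, the cap-binding protein, averaged 164 ± 10.3 CPM in knockout and 153 ± 6.60 CPM in control libraries, with a blocked log2 fold change of 0.09 (SE 0.04, adjusted p = 0.326 in edgeR). Pabpc1, which binds the poly(A) tail and contacts eIF4G, averaged 456 ± 38.4 CPM in knockout and 480 ± 69.4 CPM in control libraries.

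The 4E-binding proteins hold eIF4E back until mTORC1 phosphorylates them. Eif4ebp2, the main form in brain, had 85.6, 91.3 and 72.8 CPM in knockout libraries, against 99.2, 99.1 and 84.0 CPM in control libraries. It was lower in each pair, with overlap between the groups through knockout libraries 1 and 2 and control 3, and did not pass (blocked log2 fold change -0.18, SE 0.05, adjusted p = 0.104 in edgeR). Eif4ebp1, which is also a target of the stress factor ATF4, had 42.9, 26.4 and 11.7 CPM in knockout libraries, against 45.7, 35.9 and 9.66 CPM in control libraries. Its highest library was 4.74 times its lowest, with both libraries numbered 1 the highest and both numbered 3 the lowest. Its unblocked interval, -1.72 to 1.38, was the widest of all members, and the blocked one ran from -0.39 to 0.18.

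Levels varied between replicate numbers as well as between genotypes. For 43 of 44 the range of the same-numbered pair means exceeded the difference between genotypes, as it did for 90.1% of all tested genes. A range over 3 values tends to exceed a difference of 2 means, so the members' share is to be read against that of all genes. The median range was 0.23 on the log2 scale for the members and 0.41 for all genes. Eif4ebp1 led with a fold of 4.01 between its highest and lowest pair, then Eif2s2 with 1.57, Eif4b with 1.34 and Eif3b with 1.27. The pair numbered 3 was the lowest for 27 members (61.4%, against 34.4% of all genes) and the highest for 2 (4.55%, against 35.4%). Of the 10 TOP members 8 were highest in the pair numbered 2 and 7 lowest in the pair numbered 1, beside 33.6% and 30.5% of all genes, a description with no test, since that list was written after the values were seen. Eif4b shows this, at 455, 585 and 475 CPM in knockout libraries and 471, 660 and 473 CPM in control libraries. The sum of 20 cytosolic tRNA synthetase mRNAs was lowest in the pair numbered 3, as Eif4ebp1 was. It stood at 3619, 3250 and 2339 CPM in knockout libraries, against 3811, 3455 and 2406 CPM in control libraries, and 0 of the 20 passed in either fit. Not every synthetase followed the sum, and Dars was lowest in the pair numbered 2 (68.8 and 61 CPM in knockout and control). ATF4 also drives many of the synthetase genes, but its part in this pattern was not tested. The stress-induced gene Ppp1r15a was lowest in the pair numbered 2, at 108 and 96.6 CPM in knockout and control. RNA of microglial markers also differed between numbers. The 6 markers summed to 8.45, 158 and 140 CPM in knockout and 8.71, 160 and 123 CPM in control libraries. The part this played was not tested.

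**Figure D3:**
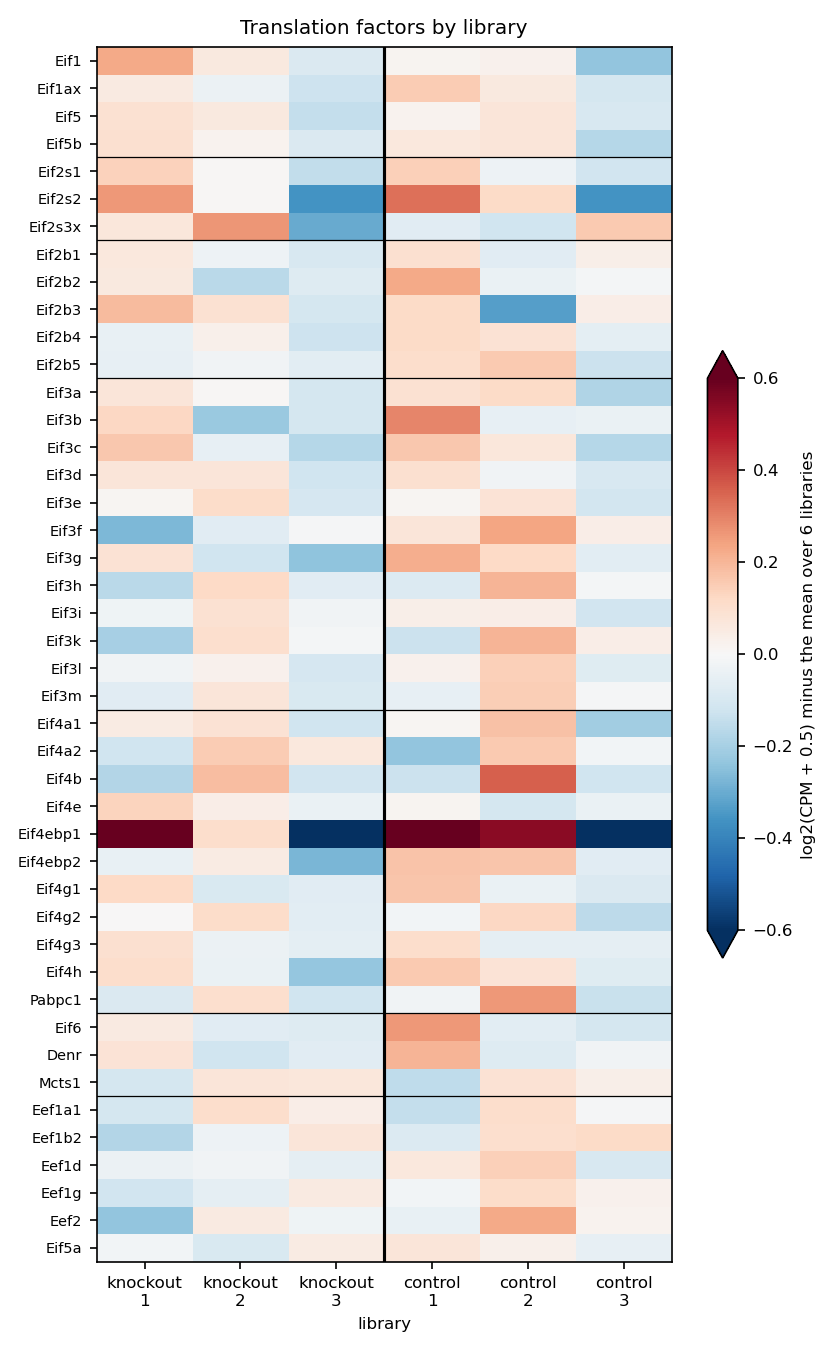
Deviation of each member's log2(CPM + 0.5) from its mean over 6 libraries, with knockout libraries left of control libraries and members grouped by complex. The color scale ends at 0.6 on either side; Eif4ebp1 goes past it, and the columns numbered 3 are mostly blue in both genotypes.

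**Figure D4:**
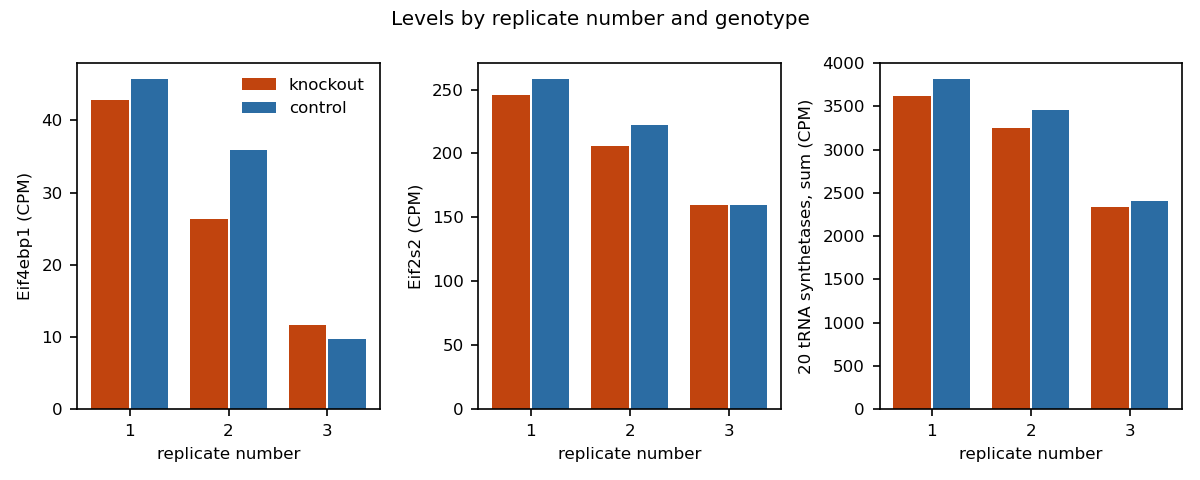
CPM of Eif4ebp1 and Eif2s2 and the summed CPM of 20 cytosolic tRNA synthetases by replicate number, with a bar per library. In each panel the bars numbered 3 are the lowest in both genotypes (11.7 and 9.66 CPM for Eif4ebp1 in knockout and control).

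Of the factors for subunit joining, reinitiation and recycling, Eif6 was the highest in CPM. Eif6, which keeps the large subunit from joining too early, had 61.7, 56.7 and 56.2 CPM in knockout libraries, against 71.1, 56.9 and 55.1 CPM in control libraries. Control 1 alone stood apart, and the blocked log2 fold change was -0.06 (SE 0.07). Denr and Mcts1, whose proteins form a pair that recycles small subunits and serves reinitiation, had blocked fold changes of -0.07 and 0.02, with adjusted p-values in edgeR of 0.617 and 0.932.

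The elongation factors held the most abundant mRNAs. Eef1a1, which delivers aminoacyl-tRNA, had the highest mean CPM of all 15906 tested genes, with 4088, 4732 and 4524 CPM in knockout libraries, against 3985, 4728 and 4370 CPM in control libraries. The groups overlapped, at a blocked log2 fold change of 0.03 (SE 0.05, 95% interval -0.08 to 0.14). Eef2, the translocase, had 1812, 2213 and 2094 CPM in knockout libraries, against 2070, 2501 and 2168 CPM in control libraries. It was lower in each pair but the groups overlapped, and its blocked log2 fold change of -0.14 (SE 0.05) missed the threshold (adjusted p = 0.207 in edgeR). With the block Eef2 passed with DESeq2 (adjusted p = 0.0422) and with limma-voom (adjusted p = 0.0265). The genes of the exchange factor complex that reloads eEF1A, Eef1b2, Eef1d and Eef1g, had blocked fold changes of -0.09, -0.07 and -0.08. Eif5a, which helps ribosomes past stalling stretches such as prolines, averaged 317 ± 15.7 CPM in knockout and 325 ± 13.4 CPM in control libraries (SD, n = 3 each). Eef1a1, Eif1, Eif5a and several others have processed pseudogenes with nearly the same sequence, so the count of each depends on how shared reads were treated. Exons of Eif5b, Eif2b4, Eif3m, Eif4a2 and Eef1b2 overlap a gene on the opposite strand (Rev1, Snx17, Ccdc73, Rfc4 and Ndufs1), and those of Eef1d overlap Naprt on the same strand, so their counts are uncertain where the strand setting of the counting is not given.

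Levels were compared between genes as CPM per kilobase of annotated exon. Eef1a1 stood at 1767 and Eef2 at 645 CPM per kilobase. Eif4g2 followed at 210, Eif1 at 192 and Eif4a1 at 157 CPM per kilobase. The eIF3 subunits, which form 1 complex, ran from 20.7 for Eif3i to 113 for Eif3h. The eIF2 subunits stood at 14.0 for Eif2s1, 30.9 for Eif2s2 and 39.1 for Eif2s3x, and eIF2B ran from 1.97 for Eif2b3 to 22.0 for Eif2b2. Repressor levels were 13.1 for Eif4ebp1 and 15.3 for Eif4ebp2, against 26.4 CPM per kilobase for Eif4e. The exon lengths include every annotated transcript of a gene, which lowers the value of genes with long rare transcripts.

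**Figure D5:**
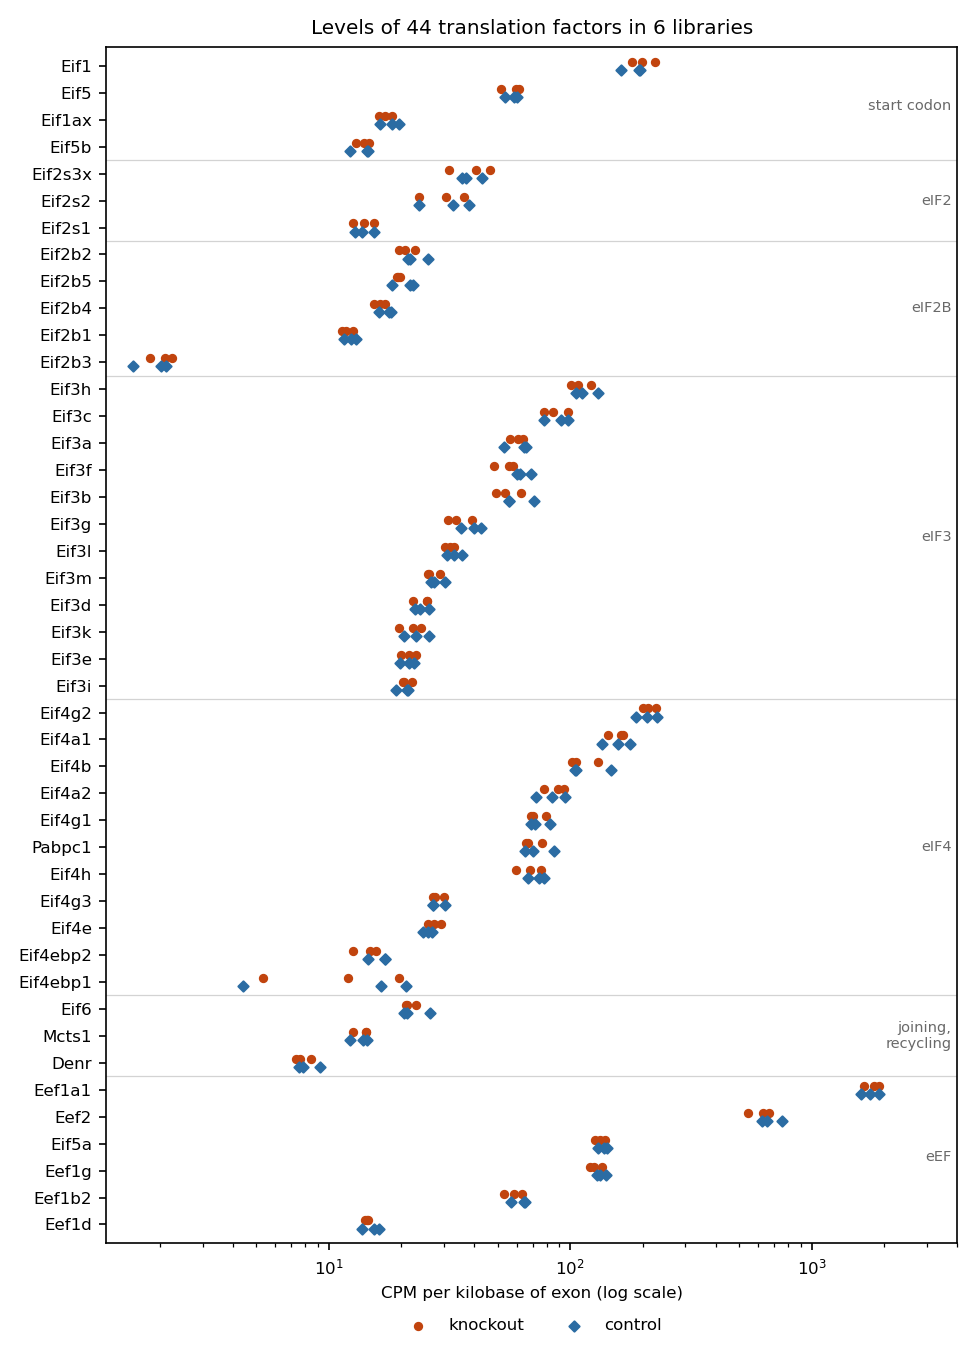
CPM per kilobase of exon (log scale) of each member in each library, by complex, with knockout libraries as circles above control libraries as diamonds. The symbols of both genotypes lie together, and levels span 1.97 (Eif2b3) to 1767 (Eef1a1) CPM per kilobase on average.

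Around these factors, 2 regulators of mTORC1 fell with the block. Of 14 genes of the mTORC1 and MAPK input to translation, 2 fell, 0 rose and 12 did not pass, beside 2.23% of all genes lower and 1.57% higher. Rheb, the GTPase that switches mTORC1 on, had 98.1, 77.4 and 80.2 CPM in knockout libraries, against 115, 98.3 and 101 CPM in control libraries. The groups just failed to overlap, and the blocked log2 fold change was -0.30 (SE 0.05, adjusted p = 0.0182 in edgeR). Akt1s1, which encodes PRAS40, an inhibitor within mTORC1, had 63.9, 60.7 and 57.3 CPM in knockout libraries, against 79.5, 85.6 and 72.1 CPM in control libraries, with no overlap (blocked log2 fold change -0.38, SE 0.06, adjusted p = 0.0132 in edgeR). Without the block both had an adjusted p in edgeR of 1.00. Rheb lost the call without the libraries numbered 3 (adjusted p = 0.0853 in edgeR), and Akt1s1 lost it after correction for GC content (log2 fold change -0.24, adjusted p = 0.0796 in edgeR). The group also held Mtor, Rptor, Tsc1, Tsc2, Rps6kb1 and Larp1, which did not pass.

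The other lists of the pathway held 0 calls in either fit. Of 24 tested further initiation factors and regulators, including the eIF2 kinases and Ddx3x, 0 passed, with a median blocked log2 fold change of 0.00. Of 16 tested further elongation and termination factors 0 passed, with a median of -0.05, and of 20 cytosolic tRNA synthetases 0 passed, with a median of -0.04. Nearest to the threshold were Dohh and Ppp1r15a, with an adjusted p in edgeR of 0.0531 each, named after their values were seen. Dohh, the enzyme that completes hypusine on eIF5A, had 27.3, 29.5 and 24.4 CPM in knockout libraries, against 36.0, 35.2 and 31.9 CPM in control libraries, with no overlap (blocked log2 fold change -0.34, SE 0.08), and after GC correction it was at -0.20 (adjusted p = 0.241 in edgeR). Ppp1r15a, the stress-induced subunit that brings a phosphatase to eIF2, had 191, 108 and 194 CPM in knockout libraries, against 163, 96.6 and 177 CPM in control libraries (blocked log2 fold change 0.18, SE 0.04), higher in each pair. With the block Ppp1r15a passed in edgeR with library totals, upper quartile scaling, the 5 CPM filter and no filter (adjusted p = 0.0345, 0.0356, 0.0397 and 0.0332). Dohh passed with no filter in edgeR (adjusted p = 0.0297) and with limma-voom (adjusted p = 0.0381).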

How the data were processed

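Libraries were stranded poly(A) RNA sequenced in paired-end mode, per the labels' protocols. The deposited counts are whole, unnormalised numbers per gene symbol. Tools listed in the submitters' processing notes, with no roles, are HISAT2 (2.2.1), DESeq2 (1.26.0) and HTSeq (0.12.4), and the build is mm10. The sources used here do not give the annotation, the strand setting or how shared reads were treated. The 5 summary entries were left out. Of the 24421 genes listed, 15906 passed edgeR's filter, holding 99.95% of gene counts.

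Genotypes were compared by edgeR's two-sided quasi-likelihood test (version 4.0.16, R 4.3.3) after TMM scaling, with Benjamini-Hochberg adjustment over all tested genes and a threshold of 0.05. Same-numbered libraries correlated in their deviations from group means (r over 0.1 in all 3 pairs), so the replicate block was added beside it. Common biological variation was 0.315 without and 0.104 with the block, at 4 and 2 residual degrees of freedom. Alternatives were DESeq2 1.42.0, limma-voom (limma 3.58.1), other scalings and filters, left-out libraries and a GC correction in 20 bins. Lengths and GC came from GENCODE M21 (GRCm38) by symbol, for 15332 tested genes and all 44 members. The pair differences use log2(CPM + 0.5).

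The members and lists were chosen with earlier results of these data known. Values in every library are given for members called, members whose groups did not overlap, the highest of each complex in CPM, Eif2s3x with Eif2s3y, and further members nearest the threshold or most variable, added after their values were seen. The testing code was tested on simulated data.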

Additional observations from a re-analysis of the deposited data

Results flagged for a closer look

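Of the 5 summary entries that hold read pairs assigned to no gene, 3 had a larger share in each of the 3 knockout libraries than in any control library. Pairs in no gene made up 20.8% ± 0.50 of all pairs in knockout and 19.7% ± 0.665 in control libraries (SD, n = 3 each), pairs of low alignment quality 3.83% ± 0.248 and 3.11% ± 0.193 in knockout and control libraries, and unaligned pairs 1.25% ± 0.122 and 1.03% ± 0.0964 in knockout and control libraries. These differences were not tested, and their part in the values of the translation factors was not tested.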

How the results depend on the processing

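Without the block, 0 members were called under every alternative run. All genes gave 0 calls, except 20 with DESeq2 and 604 with the replicate block. The members' median log2 fold change was -0.06, and between -0.08 and -0.01 when each library was left out. With the replicate block as the starting point, the 604 calls became 1034 with no filter on low counts, 395 after GC correction (205 higher and 190 lower, over the 15332 annotated genes), and 174 to 521 without the libraries of one number, with 174 for number 3. Members called with the block were 0, but 1 with no filter (Eif3f), 2 with DESeq2 (Eif3f and Eef2), 1 with limma-voom (Eef2), and 0 to 1 without the libraries of one number (Eif3f without number 3). The other scalings, the 5 CPM filter and the GC correction gave 0. Adding the block itself changed no member's call. Up to 12 of 44 members took the opposite sign when a library was left out, and up to 8 when a pair was, each with a fold change no larger than 0.17 before, and none of these was called. The median of all genes moved by at most 0.03 under other scalings. Counts of the members ran from 262 (Eif2b3) to 132925 (Eef1a1) per library.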
